A study of Homo sapiens with 6 samples.

Results

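Cytokines and chemokines are the secreted or membrane-held proteins by which blood cells direct each other, and their receptors decide which of these signals a cell can hear. The transcripts of these genes were followed in THP-1, a human cell line from an acute monocytic leukaemia, after 1 µM monensin for 16 h and in cells with no exposure. Genes were taken by symbol: numbered CCL, CXCL, CCR and CXCR names, numbered IL, TNFSF and TNFRSF names, and TNF, LTB, CSF1, CSF1R, CSF2RA, CSF2RB and CSF3R, with TNFRSF10A and TNFRSF10B left out. Of 183 matching symbols, 78 had 60 or more reads summed over the 6 libraries and form the set described here, out of 58395 genes counted. A further 65 matching symbols had 1 to 59 reads and 40 had none. The members were thus chosen by their summed reads, which are given only as a description. Just inside the limit stood TNFRSF9 and IL17RD with 66 reads each, IL17RC with 67 and IL18R1 with 69. Just outside stood CXCL12 and IL18RAP with 59 reads each, IL9R with 52 and CCR3 with 49.

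Both groups were cultures of the same line in RPMI medium with fetal bovine serum, and no other agent is named for either. The monensin group holds 3 libraries and the untreated group 3. The label of the untreated group names no vehicle, so a vehicle and monensin cannot be told apart. Monensin is an ionophore that exchanges sodium ions for protons across membranes, and it is widely used to stop cytokines from leaving the Golgi, so a transcript level here says nothing of the protein secreted. THP-1 is a single leukaemic line, and no label ties the libraries of a group to separate cultures, so each p-value rests on a spread between libraries that may be technical.

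Chemokines attract cells through receptors that span the membrane several times, and the CCL and CXCL names follow the spacing of conserved cysteines. Most interleukins act through receptors built of 2 or more subunits, many of them shared between ligands, that signal through JAK kinases and STAT factors or, in the IL1 and IL17 families, through adaptor proteins. The TNF family pairs ligands with receptors that recruit TRAF or death-domain proteins, and the colony-stimulating factors govern the growth and survival of myeloid cells. Monocytes are known as a source of TNF, IL1B and CCL chemokines, and CCR2 is the receptor by which classical monocytes follow CCL2.

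Reads assigned to genes came to 24774546, 24170789 and 22975888 in the monensin libraries and to 25710513, 24159573 and 25378060 in the untreated libraries. Reads assigned to no gene made up 21.2% to 22.0% of the tally in monensin libraries and 19.1% to 19.8% in untreated libraries. All 12 monocytic marker genes on a list were detected, and their summed level ran from 2540 to 2750 CPM in monensin libraries and from 2610 to 2740 CPM in untreated libraries. CPM here means reads after TMM scaling for library size. Of those markers 7 were called higher and 3 lower, where 34.1% of all tested genes were called higher and 33.7% lower. Among the called markers were FCER1G, an Fc receptor chain, at 434 ± 22.0 CPM with monensin and 142 ± 5.11 CPM without, and LYZ, lysozyme, at 292 ± 24.2 CPM with monensin and 791 ± 14.3 CPM without (mean ± SD, n = 3 each). Marker lists of other cell types gave the following levels. The 6 T cell genes summed to 0.04 to 0.30 CPM in monensin libraries and 0.0809 to 0.321 CPM in untreated libraries, with CD3E and CD3G at 0 reads. The 5 NK cell genes summed to 28.6 to 30.3 CPM with monensin and 13.3 to 16.2 CPM without, of which NKG7 gave 28.1 CPM with monensin and 12.9 CPM without, with GNLY, KLRD1 and NCR1 at 0. The 5 B cell genes summed to 7.21 to 8.70 CPM with monensin and 4.93 to 5.50 CPM without. The 5 erythroid and megakaryocytic genes summed to 2.53 to 2.88 CPM with monensin and 0.729 to 1.21 CPM without, with HBA1 and HBB at 0. The 6 stromal, endothelial and epithelial genes summed to 307 to 329 CPM with monensin and 258 to 266 CPM without, of which PECAM1 gave 316 CPM with monensin and 262 CPM without, with CDH1, COL1A2 and EPCAM at 0. The part of these markers in the results below was not tested. In bulk RNA, fewer cells of a type and less RNA per cell cannot be told apart.

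With monensin, most cytokine and chemokine transcripts that changed were higher, while receptor transcripts moved both ways, as all tested genes did. Of the 78 genes, 38 were called higher and 19 lower at an adjusted p under 0.05, and 21 were not called. Among all 16542 tested genes, 34.1% were called higher and 33.7% lower, 67.8% in all. Changes are log2 fold changes, monensin over untreated, and calls and adjusted p-values are those of edgeR's quasi-likelihood test with Benjamini-Hochberg adjustment over all tested genes. At least 2-fold, 19 members were higher and 6 lower, against 9.41% and 3.83% of all tested genes. The libraries of the groups did not overlap for 43 members that were higher and 20 that were lower, and they overlapped for 15, where 35.9% and 35.2% of all genes did not overlap. The median log2 fold change was 0.33 over the members and 0.02 over all tested genes. All 78 members passed the filter on low counts, 16 of them with under 60 reads in untreated libraries and 10 with under 60 in monensin libraries. A gene that is low in 1 group could thus reach the set only through the other, so the counts describe these members and test nothing.

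Of the 29 ligands, 17 were called higher (58.6%) and 4 lower (13.8%), with a median log2 fold change of 0.66. By at least 2-fold, 11 ligands were higher and 2 lower. Of the 45 receptor subunits, 19 were called higher (42.2%) and 15 lower (33.3%), with a median of 0.07. By at least 2-fold, 7 receptor subunits were higher and 4 lower. Among all tested genes 34.1% were called higher and 33.7% lower, the background for these counts and for the class counts below. The other 4 genes are the antagonists IL1RN and IL18BP, the receptor pseudogene IL9RP3, and IL4I1, which carries an IL name but encodes an enzyme. After removal of GC content and length trends, the median was 0.50 for ligands and -0.09 for receptor subunits, so the direction of the receptor median depends on that scaling. Summed over all members, reads scaled to the library total of gene reads (RPM) came to 2331, 2289 and 2254 in monensin libraries and 2155, 2209 and 2192 in untreated libraries. After TMM scaling the same sum averaged 2227 CPM in monensin libraries and 2254 CPM in untreated libraries, so its direction depends on the scaling. Chemokines held 135, 130 and 136 RPM in monensin libraries and 82.7, 78.8 and 81.2 in untreated libraries. Chemokine receptors held 464, 468 and 453 with monensin and 579, 613 and 578 without, and the groups overlapped in neither class. CCR2 held much of the receptor sum, and without CCR2 the other 5 receptors held 236.9, 243.3 and 242.5 RPM with monensin and 212.2, 214.6 and 209.3 without.

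**Figure D1:**
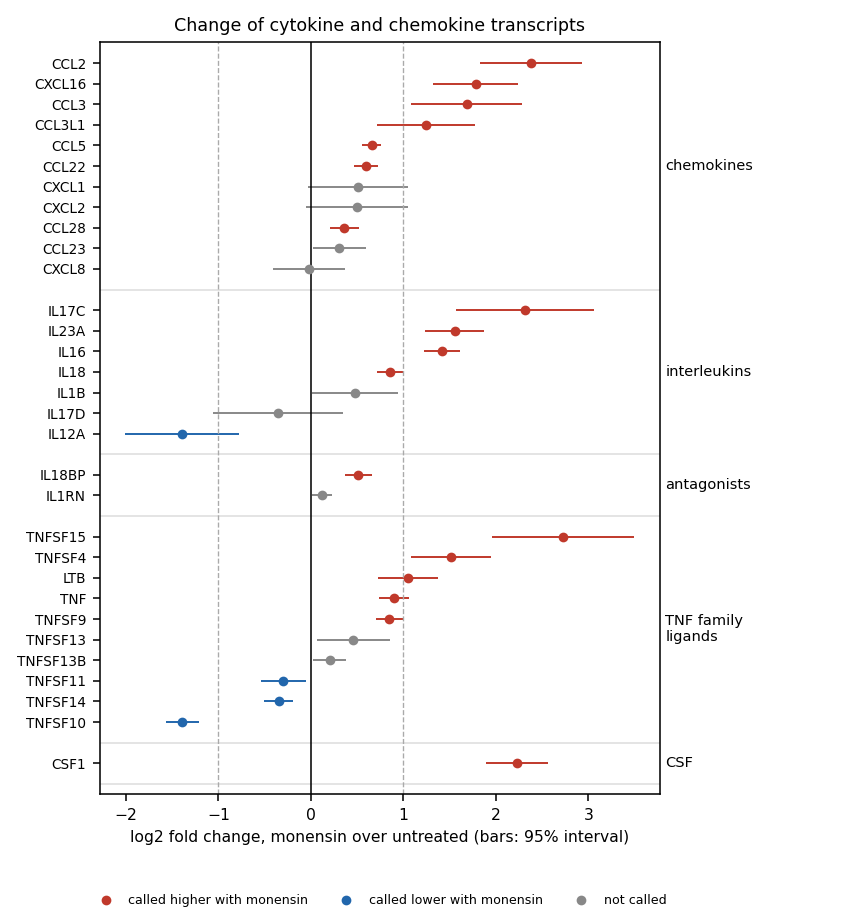
Log2 fold change of the 29 ligand and 2 antagonist transcripts, monensin over untreated, on the horizontal axis, with 1 gene per row in its class. Points are fitted values, bars are 95% intervals, dashed lines mark 2-fold, and colour gives the call at an adjusted p under 0.05. Most chemokines, interleukins and TNF family ligands lie right of 0, and TNFSF10 and IL12A, both at -1.39, lie farthest left.

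Promoters of 5 members are shown because the results turn on them: TNF and LTB, neighbours on chromosome 6 that were both higher, IL23A, an interleukin subunit at 2.94-fold its untreated level, TNFSF10, the more abundant of 2 ligands lowered at least 2-fold, and IL7R, the most lowered receptor. Each run is the 250 bases before the RefSeq start on GRCh38.p14, read 5′ to 3′ on the gene's strand, with capitals for motif matches. They lie at chr12:56338634-56338883 (plus strand) for IL23A, chr6:31575315-31575564 (plus) for TNF, chr6:31582426-31582675 (minus) for LTB, chr3:172523431-172523680 (minus) for TNFSF10 and chr5:35856641-35856890 (plus) for IL7R.
IL23A: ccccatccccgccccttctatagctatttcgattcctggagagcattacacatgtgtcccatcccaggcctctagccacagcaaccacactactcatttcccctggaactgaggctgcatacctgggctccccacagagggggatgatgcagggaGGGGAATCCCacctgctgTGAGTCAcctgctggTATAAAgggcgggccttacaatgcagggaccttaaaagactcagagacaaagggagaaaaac
TNF: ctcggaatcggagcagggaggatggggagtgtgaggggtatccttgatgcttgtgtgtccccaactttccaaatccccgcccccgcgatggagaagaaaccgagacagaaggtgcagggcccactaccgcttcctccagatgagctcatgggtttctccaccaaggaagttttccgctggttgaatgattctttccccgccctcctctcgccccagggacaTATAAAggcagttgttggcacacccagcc
LTB: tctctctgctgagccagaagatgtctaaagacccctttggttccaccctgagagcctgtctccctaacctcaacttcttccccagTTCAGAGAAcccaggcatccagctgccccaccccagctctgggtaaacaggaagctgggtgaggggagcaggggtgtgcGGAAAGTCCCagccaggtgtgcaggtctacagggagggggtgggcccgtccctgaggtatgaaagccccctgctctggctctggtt
TNFSF10: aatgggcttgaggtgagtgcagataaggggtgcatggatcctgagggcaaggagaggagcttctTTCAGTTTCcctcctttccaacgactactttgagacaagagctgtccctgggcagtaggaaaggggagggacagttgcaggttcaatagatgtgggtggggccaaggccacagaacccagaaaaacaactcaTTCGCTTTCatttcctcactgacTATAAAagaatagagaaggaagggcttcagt
IL7R: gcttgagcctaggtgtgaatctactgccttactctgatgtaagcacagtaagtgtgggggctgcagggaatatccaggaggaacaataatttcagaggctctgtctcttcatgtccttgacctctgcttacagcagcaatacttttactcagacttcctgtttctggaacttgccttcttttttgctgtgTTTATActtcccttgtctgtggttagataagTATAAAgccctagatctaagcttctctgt
The capitals mark, in IL23A, an NF-kB consensus 95 bases before the start, an AP-1 match at 77 and TATAAA at 62. In the TNF promoter they mark TATAAA 29 bases before the start, and in LTB a GAS match at 165 and an NF-kB consensus at 86 on the other strand. In TNFSF10 they mark ISRE-like matches at 186 and 54, both on the other strand, and TATAAA at 31, and in IL7R TATAAA at 60 on the other strand and at 29. The motifs were the NF-kB consensus, AP-1 (TGANTCA), a composite C/EBP-ATF element (TGATGNAAT), an ISRE-like element (GAAANNGAA), GAS (TTCNNNGAA) and the TATA box (TATAAA), searched on both strands. A match on the other strand is printed as its reverse complement. AP-1 and GAS, and the NF-kB match of IL23A, are matches on both strands, and no printed matches of different motifs overlap.

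Of the 78 members, 62 had a promoter in the RefSeq table. The NF-kB consensus stood in 13 of these 62 (21.0%), against 9.60% of all 27195 promoters of that length. It was found in 6 of 28 members called higher, 3 of 18 called lower and 4 of 16 not called. The 13 were CCL22, CXCL1, CXCL2, IL12A, IL17D, IL23A, IL27RA, IL4R, IL6ST, LTB, TNFRSF14, TNFRSF9 and TNFSF14. AP-1 stood in 9 (14.5%, against 6.55%), GAS in 8 (12.9%, against 6.79%), the ISRE-like element in 7 (11.3%, against 7.06%) and TATAAA in 11 (17.7%, against 11.1%). The C/EBP-ATF element stood in 1, IL21R, against 0.919% of all promoters. TATAAA was found in 7 of the 28 members called higher, 2 of the 18 called lower and 2 of the 16 not called. In the same order, AP-1 was found in 3, 2 and 4 members, GAS in 3, 1 and 4, and the ISRE-like element in 3, 3 and 1. A match is only a run of letters, and a promoter without one lacks those letters in this window only.

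Among the 11 chemokines, 7 were called higher, none lower and 4 were not called, with a median log2 fold change of 0.59. CCL2, which draws classical monocytes through CCR2, had 71, 71 and 60 reads in monensin libraries and 7, 9 and 22 in untreated libraries. Every monensin library was above every untreated library, and untreated library 3 stood above the other two. The log2 fold change of CCL2 was 2.38 (SE 0.28, adjusted p = 1.77e-06). CXCL16, a membrane-bound chemokine that also takes up oxidised lipoprotein, had 81, 88 and 72 reads with monensin and 33, 12 and 24 without, higher by 1.78 log2 units (SE 0.23, adjusted p = 5.97e-06), with no overlap. CCL3, an inflammatory attractant for cells with CCR1, had 23, 25 and 18 reads with monensin and 8, 6 and 6 without, and it was higher by 1.68 log2 units (SE 0.31, adjusted p = 0.000162). Its near-identical copy CCL3L1 had 51, 33 and 32 reads with monensin and 15, 11 and 22 without, higher by 1.25 log2 units (SE 0.27, adjusted p = 0.000781). Reads may be divided between CCL3 and CCL3L1, so each of their counts is uncertain. Of CCL3L1's exonic bases, 23.3% also lie under a gene on the other strand, AC243829.1, which had 30, 33 and 26 reads with monensin and 11, 9 and 13 without. CCL3's exonic bases lie to 74.6% under AC243829.4, which had 2 reads in all.

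CCL5, a T cell and monocyte attractant and the chemokine with the most reads, had 2072, 1876 and 1964 reads in monensin libraries and 1328, 1167 and 1211 in untreated libraries. The groups did not overlap, and CCL5 was higher by 0.65 log2 units (SE 0.06, adjusted p = 4.10e-08). CCL22, a ligand of CCR4 made by myeloid cells, had 19.9, 20.9 and 21.3 CPM with monensin and 13.8, 13.2 and 14.2 CPM without, higher by 0.59 log2 units (SE 0.07). CCL28, a mucosal chemokine, averaged 14.3 ± 1.19 CPM with monensin and 11.1 ± 0.539 CPM without, higher by 0.36 log2 units (SE 0.08). The neutrophil attractants CXCL8, CXCL1 and CXCL2 were not called. CXCL8 had 36, 30 and 29 reads with monensin and 31, 31 and 33 without, a log2 difference of -0.02 with a 95% interval from -0.41 to 0.37. CXCL1 had 23, 25 and 30 reads with monensin and 16, 24 and 14 without, a log2 difference of 0.51 with an interval from -0.03 to 1.05. CXCL2 had 20, 18 and 18 reads with monensin and 15, 9 and 15 without, a log2 difference of 0.50 with an interval from -0.05 to 1.05. CXCL1 was called without untreated replicate 2 (0.79). CCL23, a myeloid attractant, had 93, 77 and 88 reads with monensin and 63, 69 and 74 without, a log2 difference of 0.30 (SE 0.15, adjusted p = 0.0771). Among matching genes under the read limit, CCL4 had 4 reads with monensin and 1 without, and CCL20 had 34 with monensin and 11 without.

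Of the 6 chemokine receptors, 3 were called lower, 1 higher and 2 were not called. CCR2, the receptor for CCL2, had 219, 217 and 208 CPM in monensin libraries and 378, 413 and 379 CPM in untreated libraries. No library came near the other group, and the log2 fold change of CCR2 was -0.86 (SE 0.04, adjusted p = 1.51e-10), a fold of 0.550. CXCR3, known from activated T cells as the receptor for interferon-induced chemokines, had 6, 10 and 11 reads with monensin and 36, 35 and 23 without, and was lower at -1.80 log2 units (SE 0.31, adjusted p = 9.49e-05). CXCR2, a receptor for CXCL1, CXCL2 and CXCL8, had 28.0, 29.4 and 29.8 CPM with monensin and 38.3, 37.6 and 37.0 CPM without, lower at -0.37 log2 units (SE 0.05, adjusted p = 1.89e-05). CXCR4, the receptor for CXCL12 that holds cells in bone marrow, was the only receptor of the class called higher, with 141, 145 and 154 CPM with monensin and 125, 127 and 121 CPM without. Its log2 fold change was 0.24 (SE 0.05, adjusted p = 0.000256). CCR1, a receptor for CCL3 and CCL5, averaged 57.7 ± 3.42 CPM with monensin and 54.8 ± 1.33 CPM without, and the groups overlapped (0.07, adjusted p = 0.242). CCR1 was called without monensin replicate 3 (0.12) and under total counts alone.

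The interleukins and antagonists comprised 9 genes, of which 5 were called higher, 1 lower and 3 were not called. IL17C, an IL17 family cytokine known from epithelia, had 18, 28 and 26 reads in monensin libraries and 7, 2 and 5 in untreated libraries, without overlap, higher by 2.31 log2 units (SE 0.38, adjusted p = 6.36e-05). IL23A, the subunit particular to IL23, had 94, 98 and 89 reads with monensin and 34, 33 and 27 without, higher by 1.55 log2 units (SE 0.16, adjusted p = 4.97e-07). Its promoter is printed above. IL23 needs the subunit IL12B, which had 9 reads with monensin and 13 without and is not a member. IL12A, which pairs with IL12B to make IL12, stood in the opposite order, with 6, 11 and 9 reads with monensin and 26, 24 and 18 without and was lower at -1.39 log2 units (SE 0.31, adjusted p = 0.00101). The library values of IL23A and IL12A did not overlap between groups.

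IL16, a precursor of a CD4 ligand, had 337, 354 and 282 reads with monensin and 122, 127 and 109 without, higher by 1.42 log2 units (SE 0.10, adjusted p = 5.02e-09). Of its exonic bases 36.6% lie under AC103858.1 or STARD5 on the other strand, and the share of each was not separated. STARD5 had 136, 136 and 120 reads with monensin and 80, 69 and 94 without and a log2 fold change of 0.67. AC103858.1 had 0, 2 and 2 reads with monensin and 0, 0 and 0 without. IL18, a cytokine activated by caspase cleavage, had 570, 552 and 562 reads with monensin and 319, 313 and 286 without, higher by 0.86 log2 units (SE 0.07, adjusted p = 5.21e-08). IL18BP, the soluble protein that blocks IL18, had 452, 410 and 446 reads with monensin and 302, 284 and 318 without, higher by 0.51 log2 units (SE 0.08). The IL18 transcript and that of its blocker were thus both higher, each without overlap. IL1B, the inflammatory cytokine of activated monocytes, had 73, 40 and 37 reads with monensin and 40, 33 and 33 without. A single monensin library lay clear of the rest, the log2 difference of 0.47 was not called (adjusted p = 0.0886), and without monensin replicates 2 or 3 it was 0.61 and was called. IL1RN, which blocks the IL1 receptor, had 33.9, 33.0 and 34.0 CPM with monensin and 31.4, 30.3 and 31.1 CPM without, a log2 difference of 0.12 (adjusted p = 0.0593) although the groups did not overlap. IL17D had 13, 20 and 9 reads with monensin and 17, 25 and 11 without, with a log2 difference of -0.36 and an interval from -1.06 to 0.34. IL32, with 14 reads with monensin and 1 without, and IL11, with 29 and 9 likewise, stayed under the read limit, and IL11 is at 1.65 in the authors' deposited table.

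Of the 26 interleukin receptor genes, 10 were called higher (38.5%), 10 lower (38.5%) and 6 were not called. These shares are near the 34.1% higher and 33.7% lower of all tested genes. In the IL1 and IL18 branch every called subunit was lower. IL1R1, which binds IL1, had 29, 25 and 26 reads with monensin and 64, 38 and 48 without, lower at -0.92 log2 units (SE 0.21, adjusted p = 0.00135). IL1RAP, the shared signalling partner, had 21.1, 17.8 and 16.2 CPM with monensin and 25.1, 30.1 and 30.2 CPM without, lower at -0.63 log2 units (SE 0.09, adjusted p = 1.99e-05). IL18R1, which binds IL18, had 5, 7 and 5 reads with monensin and 16, 18 and 18 without, lower at -1.61 log2 units (SE 0.33, adjusted p = 0.000487). Its partner IL18RAP missed the read limit by 1 read, with 1, 2 and 1 reads with monensin and 17, 19 and 19 without, and the authors' deposited table gives it -3.82. Both subunits of the IL18 receptor were low in monensin libraries, while IL18 itself was higher.

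In the IL12 and IL23 branch the subunits moved apart. IL12RB1, shared by both receptors, had 18.8, 20.3 and 21.0 CPM in monensin libraries and 14.0, 13.5 and 14.6 CPM in untreated libraries, higher by 0.51 log2 units (SE 0.07, adjusted p = 9.30e-06). IL12RB2, the IL12 signalling subunit, had 24.4, 21.4 and 22.4 CPM with monensin and 31.1, 32.2 and 32.4 CPM without, lower at -0.49 log2 units (SE 0.06, adjusted p = 4.70e-06). Neither pair of groups overlapped. IL27RA, a relative that binds IL27, averaged 31.2 ± 1.96 CPM with monensin and 28.1 ± 0.378 CPM without and was called higher by 0.15 log2 units (adjusted p = 0.0385). That call did not hold without monensin replicates 1 or 3 or without each untreated library in turn (0.10 to 0.16). It was also lost with scaling by RLE, no filter, a replicate block, DESeq2 or a threshold of 0.01. With GC and length trends removed IL27RA was lower at -0.15 log2 units.

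In the IL6 branch, IL6R, the IL6-binding chain, had 364, 352 and 344 CPM in monensin libraries and 409, 417 and 404 CPM in untreated libraries. The difference was small but exceeded the spread, at -0.22 (SE 0.04, adjusted p = 0.000142). IL6ST, the signalling chain shared by IL6, IL11 and others, had 758, 746 and 548 reads with monensin and 738, 809 and 821 without, with overlap, and was called lower at -0.23 log2 units (SE 0.08, adjusted p = 0.0246). Without monensin replicate 3 it was -0.13, without untreated replicate 2 -0.19 and without untreated replicate 3 -0.23, and it was called in none of these. The IL6ST call was also lost under total counts alone, with GC and length trends removed and at a threshold of 0.01. IL11RA, which binds IL11, had 456, 463 and 514 reads with monensin and 244, 194 and 268 without. It was higher by 1.00 log2 units (SE 0.10, adjusted p = 3.00e-07). Of its exonic bases 17.4% are shared with AL162231.3 or GALT on the same strand, and the share of each was not separated. GALT was higher by 0.22 log2 units, and AL162231.3 had no reads. IL31RA, a chain for IL31, had 91, 104 and 93 reads with monensin and 45, 38 and 42 without, higher by 1.18 log2 units (SE 0.15, adjusted p = 4.41e-06). IL31RA and IL6ST lie 12.2 kb apart on chromosome 5 and were called in opposite directions.

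Receptors that use the common gamma chain were called in both directions, as were relatives that bind IL4 and IL13. IL7R, which binds IL7, had 19, 13 and 12 reads with monensin and 73, 79 and 69 without, the most lowered receptor at -2.34 (SE 0.21, adjusted p = 9.37e-08). IL15RA, which presents IL15, had 130, 147 and 112 reads with monensin and 59, 53 and 42 without, higher by 1.31 log2 units (SE 0.15, adjusted p = 1.77e-06). IL21R, which binds IL21, had 515, 509 and 448 reads with monensin and 190, 193 and 317 without, higher by 1.05 log2 units (SE 0.13, adjusted p = 3.63e-06), with untreated library 3 above the other two but below every monensin library. IL21R-AS1, on the other strand under 23.3% of the IL21R exons, had 5 reads in monensin libraries and 3 in untreated libraries. IL4R, which binds IL4 and also IL13, had 58.7, 57.0 and 60.1 CPM with monensin and 49.1, 48.7 and 52.0 CPM without, higher by 0.23 log2 units (SE 0.05, adjusted p = 0.000795), and by 0.01 without a call once GC and length trends were removed. IL13RA1, its partner in the IL13 receptor, had 43.1, 42.3 and 42.1 CPM with monensin and 49.2, 51.7 and 54.9 CPM without, lower at -0.29 log2 units (SE 0.05, adjusted p = 0.000212). IL2RB, a chain for IL2 and IL15, had 33, 27 and 35 reads with monensin and 16, 29 and 25 without, and the interval of its difference ran from -0.08 to 0.92. The common gamma chain gene IL2RG had 15 reads in monensin and 6 in untreated libraries and is not a member. Of its exonic bases 50.8% are shared with AL590764.2 on the same strand, so its count is uncertain.

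IL10RA, the IL10-binding chain, had 17.6, 16.8 and 16.3 CPM in monensin libraries and 7.62, 7.89 and 5.62 CPM in untreated libraries, higher by 1.26 log2 units (SE 0.10, adjusted p = 2.54e-08). Its partner IL10RB had 44, 51 and 40 reads with monensin and 37, 26 and 46 without, with overlap and an interval from -0.12 to 0.70. IL20RB, a chain for IL19, IL20 and IL24, had 96, 91 and 85 reads with monensin and 57, 43 and 52 without, higher by 0.82 log2 units (SE 0.15). In the IL17 receptor family, IL17RA, the shared chain, had 302, 293 and 287 CPM with monensin and 322, 345 and 332 CPM without, lower at -0.18 log2 units (SE 0.04, adjusted p = 0.00112). The call on IL17RA was lost under scaling to total counts alone (-0.09). IL17RB, the IL25-binding chain, had 51, 56 and 31 reads with monensin and 102, 84 and 121 without, lower at -1.17 log2 units (SE 0.19, adjusted p = 4.15e-05). IL17RE, the chain for IL17C, had 51, 54 and 51 reads with monensin and 49, 44 and 45 without, a log2 difference of 0.16 with an interval from -0.17 to 0.48, so the higher IL17C transcript stood beside a receptor transcript with no called change. IL17RC and IL17RD had 33 and 32 reads with monensin and 34 each without, too few to place their differences more closely than from -0.85 to 0.72 and from -0.85 to 0.64. The pseudogene IL9RP3 had 30, 39 and 40 reads with monensin and 45, 40 and 53 without and was not called, though it was called lower, at -0.74, with GC and length trends removed.

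The TNF ligands gave 5 higher and 3 lower calls among 10 genes. TNFSF15, known as TL1A, had 26, 25 and 25 reads with monensin and 2, 7 and 2 without, higher by 2.73 log2 units (SE 0.39, adjusted p = 1.58e-05), the largest change of any ligand in the set. Its receptor TNFRSF25 had 37, 40 and 46 reads with monensin and 13, 5 and 8 without, higher by 2.21 log2 units (SE 0.29, adjusted p = 6.56e-06). Ligand and receptor were both scarce, and each was higher in all 3 monensin libraries than in any untreated library. With 11 reads of TNFSF15 and 26 of TNFRSF25 in untreated libraries, both reached the read limit only through their monensin libraries. The choice of members thus favoured this pattern, which is a description only. TNFSF4, the OX40 ligand, had 54, 52 and 45 reads with monensin and 22, 12 and 18 without, higher by 1.51 log2 units (SE 0.22, adjusted p = 1.89e-05), whereas TNFRSF4, its receptor, had 3 reads in all.

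LTB, the membrane anchor of lymphotoxin, had 124, 99 and 128 reads with monensin and 54, 64 and 49 without, higher by 1.05 log2 units (SE 0.16, adjusted p = 3.80e-05). TNF, which lies 2.19 kb from LTB on chromosome 6, had 437, 424 and 350 reads with monensin and 237, 199 and 204 without, higher by 0.90 log2 units (SE 0.08, adjusted p = 1.31e-07). Both were without overlap, and their promoters are printed above. Both receptors of TNF were called higher. TNFRSF1B, the TNF receptor typical of blood cells, had 1529, 1517 and 1447 reads with monensin and 948, 875 and 904 without, higher by 0.70 log2 units (SE 0.05, adjusted p = 5.59e-09). TNFRSF1A, the widely expressed TNF receptor with a death domain, had 84.2, 85.3 and 87.4 CPM with monensin and 77.0, 77.8 and 74.1 CPM without, higher by 0.17 log2 units (SE 0.05, adjusted p = 0.00417) but at -0.09 (adjusted p = 0.0575) with GC and length trends removed. TNFRSF14, a receptor for TNFSF14, had 17.7, 17.3 and 18.0 CPM with monensin and 5.49, 6.18 and 7.04 CPM without, higher by 1.50 log2 units (SE 0.09, adjusted p = 6.55e-10). TNFRSF14-AS1, under 13.4% of its exons on the other strand, had 33, 31 and 28 reads with monensin and 20, 12 and 18 without. TNFSF14, also called LIGHT, had 14.7, 12.9 and 11.8 CPM with monensin and 16.9, 16.8 and 16.5 CPM without, lower at -0.35 log2 units (SE 0.08, adjusted p = 0.00114), so this ligand and its receptor moved in opposite directions.

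TNFSF10, the death ligand TRAIL, had 174, 135 and 162 reads in monensin libraries and 413, 383 and 425 in untreated libraries. It was the most lowered TNF ligand, at -1.39 (SE 0.09, adjusted p = 2.22e-09) and without overlap. TNFRSF10D, a decoy receptor for it, had 215, 200 and 169 reads with monensin and 228, 182 and 226 without, and the interval of its difference ran from -0.33 to 0.04. TNFSF9, a T cell costimulator, had 16.9, 17.2 and 16.8 CPM with monensin and 10.1, 9.18 and 8.94 CPM without, higher by 0.84 log2 units (SE 0.07, adjusted p = 7.23e-08), while its receptor TNFRSF9 had 3, 12 and 8 reads with monensin and 10, 20 and 13 without. The difference of TNFRSF9 was -0.91 (adjusted p = 0.0751). Leaving out monensin replicate 2 (-1.38) or untreated replicate 1 (-1.14) brought a call, as did no filter and a replicate block. TNFSF11, the osteoclast factor RANKL, had 85, 87 and 84 reads with monensin and 111, 99 and 101 without, called lower at -0.30 log2 units (adjusted p = 0.0441). That call was lost without monensin replicates 1 (-0.27) or 2 (-0.31) or untreated replicates 1 (-0.27) or 2 (-0.31). It was also lost under total counts alone, no filter, the stricter filter, a replicate block and DESeq2. The same held with GC and length trends removed and at a threshold of 0.01. The receptor of TNFSF11, TNFRSF11A, had 55, 45 and 29 reads with monensin and 58, 54 and 67 without, called lower at -0.50 log2 units (adjusted p = 0.0374). The TNFRSF11A call was lost without monensin replicates 2 (-0.53) or 3 (-0.31) or untreated replicate 3 (-0.43). It was also lost under total counts alone, with DESeq2 and at a threshold of 0.01.

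TNFSF13B, the B cell survival factor BAFF, had 337, 344 and 368 reads with monensin and 339, 263 and 299 without, a log2 difference of 0.20 (adjusted p = 0.0564) that was called without monensin replicate 1 (0.26) or untreated replicate 1 (0.27), under total counts alone (0.29) and with GC and length trends removed (0.29). TNFRSF13C, the BAFF receptor, had 41, 35 and 49 reads with monensin and 29, 18 and 32 without, called higher by 0.64 log2 units (SE 0.24, adjusted p = 0.0245), though not without monensin replicate 3 (0.47) or untreated replicate 2 (0.45). The TNFRSF13C call was also lost with DESeq2, with GC and length trends removed and at a threshold of 0.01. TNFSF13, known as APRIL, had 48, 54 and 58 reads with monensin and 42, 28 and 45 without. Its log2 difference of 0.46 (adjusted p = 0.0527) was called without monensin replicate 1 (0.56) or untreated replicate 3 (0.57), under total counts alone and with the stricter filter. Of the exonic bases of TNFSF13, 55.5% are shared with the readthrough gene TNFSF12-TNFSF13, which had no reads. How reads over the shared bases were assigned was not tested, so the counts of both genes are uncertain. TNFRSF21, a death-domain receptor, had 30.5, 28.4 and 27.3 CPM with monensin and 44.2, 47.0 and 44.0 CPM without, lower at -0.65 log2 units (SE 0.06, adjusted p = 9.41e-08). TNFRSF12A, the receptor for TWEAK, averaged 3.53 ± 0.535 CPM with monensin and 3.55 ± 0.694 CPM without, with an interval of the difference from -0.33 to 0.31. With GC and length trends removed TNFRSF12A was called lower, at -0.40.

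**Figure D2:**
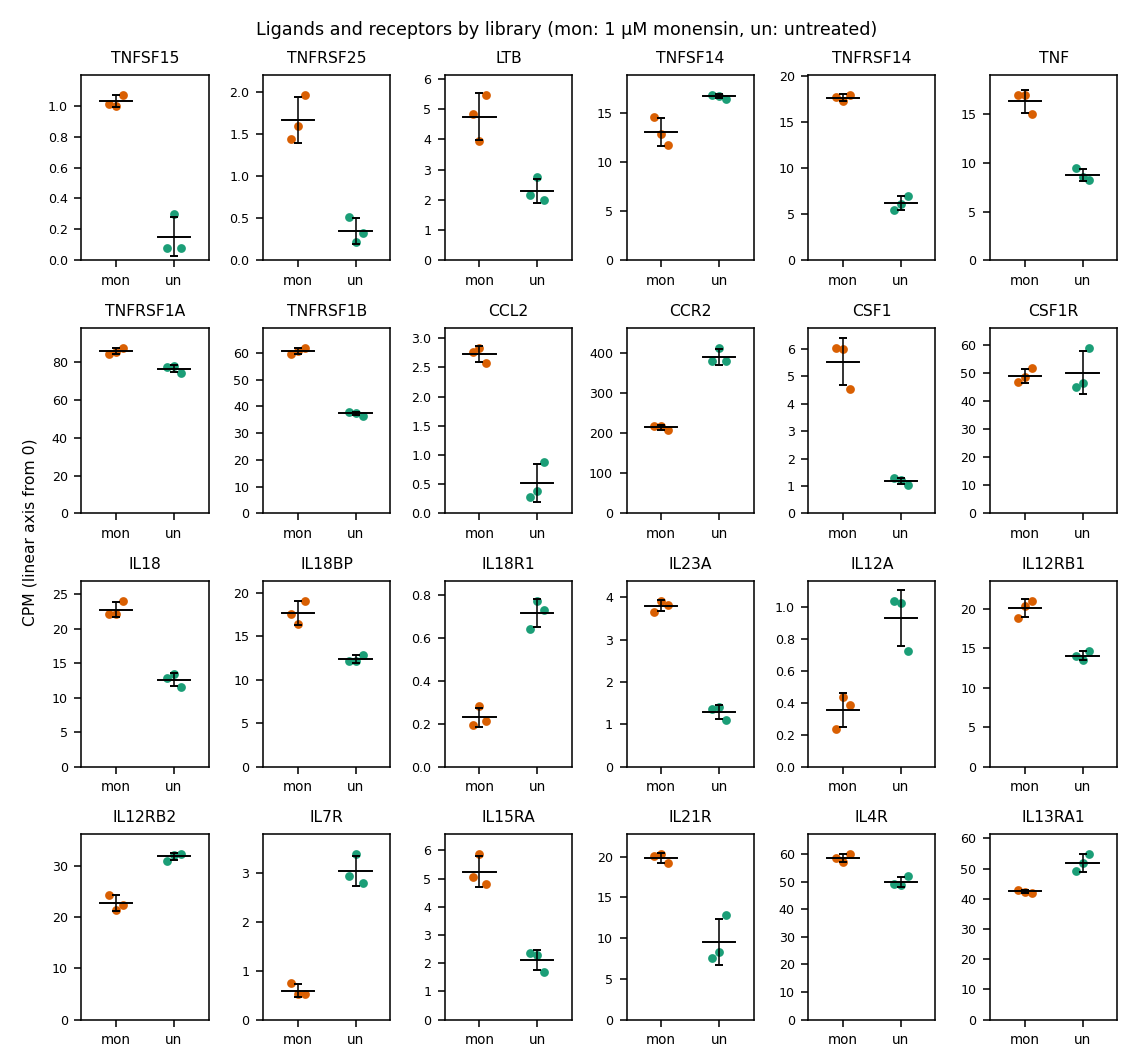
Level in CPM on a linear vertical axis from 0 for 24 ligands and receptors, with 1 panel per gene, monensin libraries left and untreated libraries right. Points are libraries, and the horizontal line and bar are the mean and SD of 3. TNFSF15 and TNFRSF25 were both higher with monensin, CCL2 was higher and CCR2 lower, and IL18 was higher and IL18R1 lower.

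The growth factor CSF1 and 4 receptors made up the colony-stimulating class, with 4 called higher and none lower. CSF1, the survival factor of monocytes and macrophages, had 155, 150 and 106 reads in monensin libraries and 32, 28 and 26 in untreated libraries. Monensin library 3 was the lowest of its group and still above every untreated library, and the log2 fold change was 2.23 (SE 0.17, adjusted p = 1.44e-08). CSF1R, its receptor, had 47.0, 48.8 and 51.9 CPM with monensin and 45.3, 46.4 and 59.2 CPM without, with overlap, a log2 difference of -0.03 and an interval from -0.20 to 0.13. With GC and length trends removed CSF1R was called lower, at -0.26. CSF2RA, which binds GM-CSF, had 39.4, 39.0 and 38.4 CPM with monensin and 19.7, 18.5 and 20.2 CPM without, higher by 1.00 log2 units (SE 0.06, adjusted p = 5.79e-10). CSF2RB, the chain it shares with the IL3 receptor, had 46.2, 46.8 and 40.2 CPM with monensin and 32.0, 35.7 and 35.9 CPM without, higher by 0.36 log2 units (SE 0.07, adjusted p = 0.000192). IL3RA, which binds IL3, had 227, 215 and 219 reads with monensin and 199, 131 and 179 without, higher by 0.36 log2 units (SE 0.11, adjusted p = 0.0106), and it was not called without untreated replicate 2 (0.22) or with GC and length trends removed (0.07). The IL3RA call was also lost at a threshold of 0.01. CSF2RA and IL3RA lie 26.2 kb apart in the pseudoautosomal region of chromosome X, whose copy on Y makes their counts uncertain. CSF3R, the receptor for G-CSF, had 154, 145 and 163 CPM with monensin and 102, 95.8 and 100 CPM without, higher by 0.63 log2 units (SE 0.05, adjusted p = 1.94e-08).

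The largest change in the set belonged to IL4I1, which matches the symbol rule but encodes a secreted amino acid oxidase and no cytokine. It had 368, 368 and 290 reads in monensin libraries and 17, 9 and 9 in untreated libraries, and every monensin library was far above every untreated library. The log2 fold change was 4.84 (SE 0.17, adjusted p = 1.74e-12), a fold of 28.6. IL4I1 lies on chromosome 19 from 49889654 to 49929539 on the minus strand of GRCh38. Of its exonic bases 13.1% are shared with NUP62 on the same strand, which was lower at -0.44 log2 units, and 2.93% lie under ATF5 on the other strand. ATF5, a stress-responsive transcription factor, had 5270, 4928 and 4807 reads with monensin and 901, 811 and 799 without, a log2 fold change of 2.56. How many of the reads of IL4I1 come from bases shared with these genes was not tested.

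Per kilobase of exonic length, receptors were the most abundant members. With monensin the highest levels were those of CXCR4 at 66.0, CCR2 at 57.4, IL6R at 54.7, CCL5 at 52.9 and IL17RA at 32.6 CPM per kb. In untreated cells they were CCR2 at 104, IL6R at 63.5, CXCR4 at 55.9, IL17RA at 36.9 and CCL5 at 33.6 CPM per kb. CCR2 thus stood above CXCR4 in untreated cells and below it with monensin. TNF stood at 9.74 CPM per kb with monensin and 5.23 without, CSF1 at 1.02 with monensin and 0.218 without, IL1B at 0.649 with monensin and 0.469 without, and TNFSF15 at 0.130 with monensin and 0.0195 without. The 5 members of the highest untreated level changed by 0.65 or less on the log2 scale except CCR2. IL4I1, TNFSF15, CCL2, IL17C and CSF1, with the largest changes upward, were all below 0.3 CPM per kb in untreated cells. The untreated level divides the fold change, and a gene scarce in untreated cells could enter the set only through its monensin reads. TNFSF15 had 76 reads with monensin and 11 without, and IL17C had 72 with monensin and 14 without. The choice of members thus favoured this relation, which tests nothing.

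**Figure D3:**
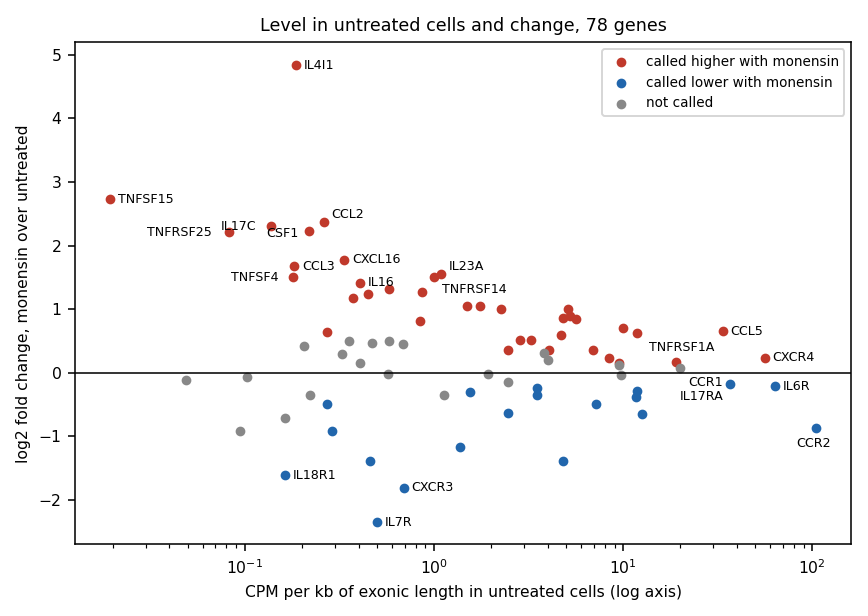
Each point is 1 of the 78 genes, with its untreated level in CPM per kb of exonic length on a log horizontal axis and its log2 fold change, monensin over untreated, on the vertical axis. Colour gives the call at an adjusted p under 0.05. The largest changes upward belong to genes of low untreated level such as IL4I1 and TNFSF15, and the most abundant gene, CCR2, is lower at -0.86 log2 units. The untreated level enters both axes, and a gene scarce in untreated cells could enter the set only through its monensin reads.

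By position, 26 members formed 15 neighbouring pairs within 250 kb of each other on GRCh38. Of these pairs 5 were called the same way, 2 in opposite directions and 8 included a member that was not called. With 48.7% of all members called higher and 24.4% lower, some pairs would be called the same way whatever their position. Whether neighbours were called alike more often than other genes was not tested. The pairs called the same way were TNF and LTB, CCL3 and CCL3L1 (105 kb apart on chromosome 17), IL4R and IL21R (37.4 kb apart on chromosome 16), CSF2RA and IL3RA, and IL1R1 and IL18R1. IL1R1 and IL18R1 lie 132 kb apart on chromosome 2, where both were lower. TNFSF9 and TNFSF14, 125 kb apart on chromosome 19, were called in opposite directions. Of the 78 genes, 5 shared over 10% of their exonic bases with a gene on the same strand and 7 with a gene on the other strand. The labels do not say whether counting used the strand, so reads of a gene and its antisense partner cannot be told apart.

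Genes that act beside these receptors were followed on 3 lists. Among all tested genes 34.1% were called higher and 33.7% lower, so the counts on these lists are a description only. Of 37 tested genes of receptor-proximal signalling, 17 were called higher and 9 lower, with a median log2 fold change of 0.12. MAP3K14, the kinase of the alternative NF-kB pathway, averaged 10.1 ± 0.784 CPM with monensin and 4.54 ± 0.305 CPM without, higher by 1.15 log2 units (SE 0.10, adjusted p = 7.19e-08). TRAF1, an adaptor of TNF family receptors, averaged 7.54 ± 0.0982 CPM with monensin and 3.71 ± 0.750 CPM without, higher by 1.02 log2 units. STAT5A, a factor downstream of CSF2RA and IL3RA, averaged 36.1 ± 2.13 CPM with monensin and 18.4 ± 0.0715 CPM without, higher by 0.97 log2 units. PTPN11, a phosphatase of cytokine receptor signalling, averaged 115 ± 5.37 CPM with monensin and 181 ± 9.72 CPM without, lower at -0.65 log2 units. Of 48 cytokine genes that the symbol rule does not reach, 23 were tested, 13 were called higher and 5 lower, and 12 had no reads, CSF2 and FASLG among them. TGFBR1, a TGF-beta receptor, averaged 280 ± 18.5 CPM with monensin and 101 ± 6.03 CPM without, higher by 1.48 log2 units (SE 0.06, adjusted p = 4.08e-12). KITLG, the ligand of KIT, averaged 4.51 ± 0.675 CPM with monensin and 13.1 ± 0.607 CPM without, lower at -1.53 log2 units. CD40, a TNF family receptor, was higher by 1.06 log2 units, and EPOR, the erythropoietin receptor, by 1.01.

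Of 12 genes for the processing and shedding of cytokines, 7 were called higher and 2 lower, with a median of 0.23. The shares over all tested genes were 34.1% higher and 33.7% lower. RHBDF1 and RHBDF2 encode inactive rhomboids needed for ADAM17 to reach the surface and release TNF. RHBDF1 averaged 18.0 ± 2.05 CPM in monensin libraries and 7.34 ± 1.61 CPM in untreated libraries, a log2 fold change of 1.29. RHBDF2 averaged 23.5 ± 0.425 CPM in monensin libraries and 15.3 ± 0.461 CPM in untreated libraries, a log2 fold change of 0.62. SPPL2B, an intramembrane protease, was higher by 0.54 log2 units, and TIMP3, an inhibitor of ADAM17, by 0.34.

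The authors' deposited table lists 2410 genes, 1688 higher and 722 lower, with absolute log2 fold changes of 1 or more. It holds 24 of the 78 members, 18 higher and 6 lower, where 8.61% and 3.91% of the genes tested here are in it as higher and lower. All 24 were also called by edgeR in the same direction, and the values in the authors' deposited table and the fitted values differed by at most 0.042 on the log2 scale. IL11RA was called at least 2-fold higher here and is not in the authors' deposited table. Both sets of values come from the same 6 libraries.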

How the data were processed

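RNA of 6 THP-1 libraries was sequenced as single reads of 75 nt from a directional kit, per the labels' protocols. The authors deposited raw counts of reads per gene. HISAT2 2.1.0, HTSeq 0.11.1, Trimmomatic 038 and DESeq2 1.22.2 on hg38 (GRCh38) are named per the submitters' processing notes. The annotation release and strand setting are not given in the sources used here. In addition the authors deposited a table of log2 fold changes, without errors. The 5 tally lines of each count file stayed out of library sizes and tests.

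Groups follow the treatment labels. Counts were fitted with edgeR 4.0.16 in R 4.3.3 (default filter on low counts, TMM, treatment as the only term, quasi-likelihood F test), with Benjamini-Hochberg adjustment over 16542 genes. A gene was called at an adjusted p under 0.05, and standard errors were derived from the F statistic. Intervals are 1.96 standard errors on each side. Exonic lengths and positions came from GENCODE 29 on GRCh38, GC content from its transcripts, and promoters from RefSeq (GRCh38.p14). The tests were tried on simulated counts. The alternatives were DESeq2 1.42.0, scaling by RLE or by total counts, either no filter or a filter of 1 CPM in 3 libraries and 50 reads in all, a replicate block, GC and length trends removed, each library left out, and a threshold of 0.01.

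The members and gene lists were chosen with earlier results of these data known. Every member may be named, and some genes are not reported here. Values per library were given for up to 5 called members per class with the largest changes, up to 2 with the highest level, and a set of well-known genes, and from each list for up to 4 called genes whose average log2 CPM was 2 or more. Values of further members per library are shown beside these. No library repeated another: between replicates, chi-square per degree of freedom was 1.91 to 5.08. Read counts limit the precision of the rarer genes, and counting intervals would cover counting error only.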

Additional observations from a re-analysis of the deposited data

How the results depend on the processing

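Of the 78 members, 58 kept their call or lack of one under every alternative that tested them, 33 of them called higher and 15 called lower. The stricter filter did not test 12 members, 10 of these 58 among them. With the stricter filter 3 members were lower by at least 2-fold, since only 66 of the members were tested. With GC and length trends removed, 1 processing and shedding gene was called lower, and of the called members TNFRSF1A (-0.0905) and IL27RA (-0.152) turned direction; the cause was not tested. Members that were not called could change sign between settings, such as IL1RN (-0.04 with GC and length trends removed) and CSF1R (0.05 under total counts alone). Members called higher ranged from 34 (GC and length trends removed) to 43 (total counts alone), and members called lower from 15 to 21. The share of higher calls among called members was 66.7%, and 74.1% under total counts alone and 61.8% with GC and length trends removed. DESeq2 called 36 members higher and 17 lower. Taken gene by gene over all tested genes, log2 fold changes shifted by a median of 0.0858 under total counts alone. With GC and length trends removed that median shift was -0.0921. Without a single library, 36 to 39 members were called higher and 17 to 19 lower, 17 to 19 higher by at least 2-fold and 5 to 7 lower by at least 2-fold. Deviations of same-numbered libraries from their group means correlated at -0.152, 0.150 and 0.0186. Monensin libraries 1 and 3 correlated better with another number than with their own, and monensin library 2 best with its own. Weak correlations over 3 libraries per group cannot settle whether the replicate numbers pair the libraries. With the replicate number as a block, 37 members were called higher and 19 lower, IL27RA and TNFSF11 were no longer called, TNFRSF9 was, and 5515 genes in all were higher and 5435 lower. TNFRSF9, IL17RC, IL17RD, IL17D, CXCL2 and IL18R1, each with under 60 reads in both groups, have 95% intervals over 1 log2 unit wide, which limits what these libraries can show for them.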
